A study of Mus musculus with 8 samples.

Results

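The miR-23/27/24 clusters are a pair of short gene clusters that give rise to closely related mature miRNAs. They were followed here through 7 mature forms: mmu-miR-23a-3p, mmu-miR-27a-3p and mmu-miR-24-2-5p of the a cluster, mmu-miR-23b-3p, mmu-miR-27b-3p and mmu-miR-24-1-5p of the b cluster, and mmu-miR-24-3p, which both clusters encode. The forms were taken by name from the deposited table (the mouse prefix mmu is dropped from here on), where they made up 7 of 1978 mature names and 8 of 2128 rows. miR-24-3p held 2 of these rows, 1 per hairpin, which were summed. The 2 rows held equal counts in 7 of the 8 libraries, so they do not tell the hairpins apart. Whether its reads were divided between the rows or counted in both is not stated, and in the latter case the sum counts them in duplicate. All 7 forms passed the filter on low counts that left 382 mature miRNAs for testing.

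Small RNA had been sequenced from CD8+ T cells of mouse spleen in 8 libraries, 2 in each of 4 groups. The groups were mCre MP, mCre TN, WT MP and WT TN, where mCre and WT are genotypes and MP and TN are sorted subsets. CD8+ cells were enriched on magnetic beads and sorted on CD8, CD4, CD44 and CD122, of which CD44 and CD122 are surface proteins known to be high on memory-phenotype cells. The design text writes VM where the sample titles write MP, and the labels spell out none of these abbreviations. The series title links the libraries to miR-29 and to Cre, a recombinase, but the labels give neither the promoter that drives Cre, nor the allele it acts on, nor the strain and age of the mice behind each library. The sort protocol covers adult and neonatal spleens together. Whether the replicates of a group were separate mice is not stated, and p-values therefore measure only the spread between libraries, which may be technical.

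Each cluster is transcribed as 1 long RNA that is cut into 3 hairpins, and each hairpin is cut into a duplex whose strands are called the 5p and the 3p arm. The arm that is kept is loaded into an Argonaute protein and pairs with messenger RNAs mainly through its seed, the bases near its 5′ end. In T cells miR-23a is known to repress Blimp-1, a transcription factor of effector differentiation, and miR-24 and miR-27 are known to restrain the type 2 helper programme of CD4+ T cells.

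The mature sequences of both clusters, which set apart the forms that can be told from each other and the shared miR-24-3p, run as follows, 5′ to 3′, with the seed (bases 2 to 8) in capitals, as RefSeq gives them on the mouse build GRCm38.p6.
miR-23a-3p: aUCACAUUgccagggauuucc
miR-27a-3p: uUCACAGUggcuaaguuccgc
miR-27b-3p: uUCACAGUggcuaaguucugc
miR-24-3p: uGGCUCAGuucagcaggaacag
miR-24-2-5p: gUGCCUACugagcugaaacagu
miR-24-1-5p: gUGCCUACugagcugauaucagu
miR-27a-5p: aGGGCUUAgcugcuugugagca
miR-27b-5p: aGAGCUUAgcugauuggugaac
miR-23b-5p: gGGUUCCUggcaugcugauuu
The 3p arms of miR-27a and miR-27b differ by 1 substitution, C19U, with positions counted from 1 at the 5′ end and the base of miR-27a-3p given first. They therefore share a seed, and in the deposited table no other name with a RefSeq sequence shares it. miR-23a-3p has another seed than the miR-27 forms. miR-24-2-5p (22 bases) and miR-24-1-5p (23 bases) share their first 16 bases and so their seed. The 5p arms of miR-27a and miR-27b are shown because they behaved unlike their 3p arms. They share their first 2 bases, and their seeds differ by 1 base. The seed of miR-24-3p occurs in 4 other names of the table, miR-5124b, miR-6369, miR-6410 and miR-6413, and 0 of these had a count above 0.

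The a cluster spans 404 bases on the plus strand at chr8:84208518-84208921. Its miR-23a-3p lies at chr8:84208563-84208583, miR-27a-3p at chr8:84208727-84208747, miR-24-2-5p at chr8:84208839-84208860 and a copy of miR-24-3p at chr8:84208875-84208896. The GENCODE M21 annotation places the Mir23a and Mir27a hairpins in no other gene, and the end of the Mir24-2 hairpin overlaps an exon of the long non-coding RNA gene Gm26532. The b cluster spans 792 bases on the plus strand at chr13:63300484-63301275, with miR-27b-3p at chr13:63300760-63300780, miR-24-1-5p at chr13:63301213-63301235 and the other copy of miR-24-3p at chr13:63301251-63301272. It lies within the protein-coding gene 2010111I01Rik on the same strand, where Mir23b is intronic and Mir27b and Mir24-1 overlap exons of some transcripts, and within Fancc on the opposite strand, where no exon overlaps the hairpins. Both Mir24 hairpins also lie opposite annotated Mir3074 hairpins.

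Library totals ran from 1936600 to 5230975 miRNA counts. The miR-29a, b and c 3p forms together, the family named in the series title, made up 0.0774% and 0.132% of counts in mCre MP replicates 1 and 2, 0.169% and 1.59% in mCre TN, 0.367% and 1.14% in WT MP, and 0.354% and 0.0771% in WT TN. The library labelled mCre TN replicate 2 was thus the highest of all 8 and the library labelled WT TN replicate 2 the lowest, against the order that their labels would give if mCre lowers miR-29. The labels do not state which sequence is deleted, so this cannot settle whether the labels are right. Selected fold changes and ratios that rest on these 2 libraries are given with and without them, and levels are given by library. The median shares within the set and the likeness between forms use all 8 libraries. The 4 lymphocyte and blood markers, miR-150-5p, miR-142a-3p, miR-142a-5p and miR-342-3p, had counts in every library, while the myeloid markers miR-223-3p and miR-223-5p summed to 1.40 to 13.7 CPM before scaling.

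The 7 forms together made up 0.654% to 2.82% of all counts, with a median of 1.36%. Levels are given as CPM, the counts of a miRNA relative to its library total, scaled by TMM, which corrects library totals for composition. Libraries are given in the order of replicates 1 and 2 of each group.

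miR-27b-3p was the most abundant of the forms in every library, and miR-27b-3p ranked 13 to 26 among all mature names. It reached 4768.3 and 7529.4 CPM in mCre MP, 6969.8 and 3934.3 CPM in mCre TN, 11595.6 and 8735.7 CPM in WT MP, and 13780.1 and 5727.1 CPM in WT TN. Both mCre MP libraries lay below both WT MP libraries, while the TN libraries of the 2 genotypes overlapped. Its cluster a counterpart, miR-27a-3p, reached 819.1 and 1052.8 CPM in mCre MP, 1610.6 and 220.0 CPM in mCre TN, 1704.7 and 894.1 CPM in WT MP, and 2164.3 and 997.2 CPM in WT TN. The groups of miR-27a-3p overlapped throughout, and its lowest value belonged to the library labelled mCre TN replicate 2.

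Of the abundant 3p forms miR-23a-3p varied the most, over an 11.1-fold range, against 9.84-fold for miR-27a-3p and 5.89-fold for miR-23b-3p. miR-23a-3p reached 321.4 and 676.9 CPM in mCre MP, 2201.6 and 3573.4 CPM in mCre TN, 2090.6 and 2188.1 CPM in WT MP, and 2114.5 and 538.5 CPM in WT TN. The low values of miR-23a-3p were those of both mCre MP libraries and of the library labelled WT TN replicate 2, and the other 5 libraries lay within 2090.6 to 3573.4 CPM. miR-23b-3p had a like pattern, with 267.0 and 451.3 CPM in mCre MP, 779.1 and 1572.9 CPM in mCre TN, 1121.1 and 1258.2 CPM in WT MP, and 1044.8 and 388.5 CPM in WT TN. For miR-23b-3p, too, the 3 lowest libraries were both mCre MP libraries and the library labelled WT TN replicate 2.

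miR-24-3p, the shared product, had the narrowest range of the 5 abundant forms, 3.10-fold against 3.50-fold or more. It reached 1090.4 and 1574.8 CPM in mCre MP, 2811.6 and 2904.4 CPM in mCre TN, 2727.7 and 2797.4 CPM in WT MP, and 3384.9 and 1847.3 CPM in WT TN. Both mCre MP libraries were the lowest, followed by the library labelled WT TN replicate 2. The 5p arms that differ between the Mir24 hairpins were much rarer. miR-24-2-5p reached 113.5 and 142.9 CPM in mCre MP, 215.2 and 48.7 CPM in mCre TN, 157.1 and 139.1 CPM in WT MP, and 251.0 and 219.0 CPM in WT TN. miR-24-1-5p reached 9.50 and 9.32 CPM in mCre MP, 11.6 and 0 CPM in mCre TN, 15.2 and 13.3 CPM in WT MP, and 12.5 and 8.98 CPM in WT TN. Its 0 in the library labelled mCre TN replicate 2 allows up to 3 counts, and its other libraries held 15.5 to 69.5 counts, so its differences were the least precise of the 7.

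**Figure D1:**
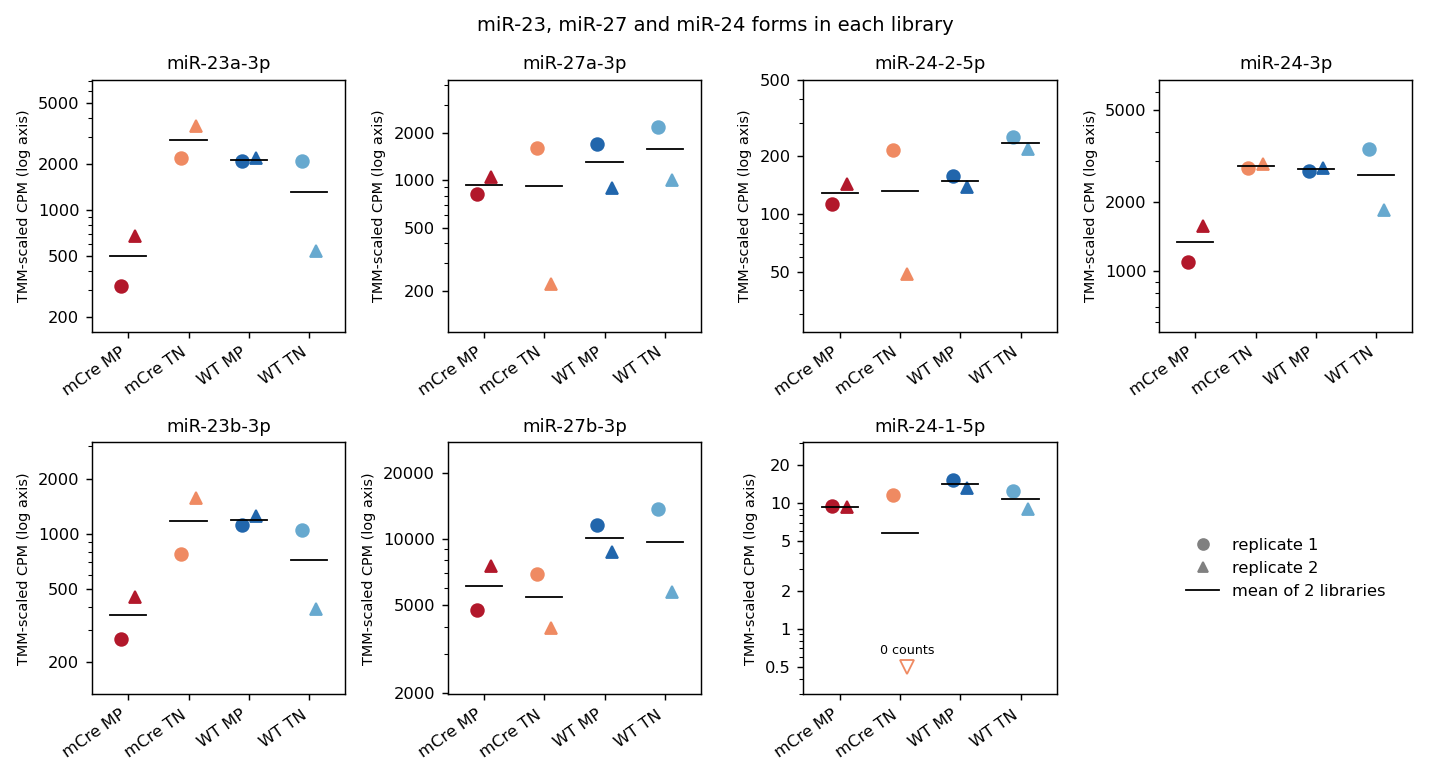
TMM-scaled CPM on a log axis for each of the 7 forms, with circles for replicate 1, triangles for replicate 2 and a bar at the mean of the 2 libraries of a group. miR-23a-3p, miR-23b-3p and miR-24-3p have their lowest point and lowest group mean in mCre MP. For both miR-23 forms the library labelled WT TN replicate 2 lies below mCre MP replicate 2. miR-27a-3p, miR-27b-3p, miR-24-2-5p and miR-24-1-5p have their lowest point in the library labelled mCre TN replicate 2.

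By their median share of the counts of all 7 forms, the order was miR-27b-3p (59.3%, range 32.1% to 65.8%), miR-24-3p (16.2%, 13.8% to 23.7%), miR-23a-3p (10.03%, 4.35% to 29.2%), miR-27a-3p (9.36%, 1.79% to 11.1%), miR-23b-3p (4.96%, 3.61% to 12.8%), miR-24-2-5p (1.18%, 0.397% to 2.25%) and miR-24-1-5p (0.0802%, 0% to 0.125%). The ranges of miR-24-3p and miR-27b-3p did not overlap, nor did those of miR-24-2-5p and its neighbours, whereas miR-23a-3p overlapped both miR-24-3p and miR-27a-3p, and miR-27a-3p overlapped miR-23b-3p. The share of miR-24-3p and its place in this order rest on the sum of its 2 rows, and would be lower if its reads were counted in both. Ligation of adaptors favours some ends over others, so these shares compare reads and not molecules.

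The a and b forms of a pair were set against each other within each library, where no scaling is needed. In the miR-23 pair the a form was the larger in 8 of 8 libraries. miR-23a-3p made up 54.6% and 60% of the pair in mCre MP, 73.9% and 69.4% in mCre TN, 65.1% and 63.5% in WT MP, and 66.9% and 58.1% in WT TN. The a form exceeded the b form by 1.20 to 2.83 times, with a median of 1.80. In the miR-27 pair the b form was the larger in all 8 libraries. miR-27a-3p made up 14.7% and 12.3% of the pair in mCre MP, 18.8% and 5.30% in mCre TN, 12.8% and 9.28% in WT MP, and 13.6% and 14.8% in WT TN. The excess of miR-27b-3p over miR-27a-3p ran from 4.33 to 17.9 times, with a median of 6.58. The smallest a share of this pair, 5.30%, belonged to the library labelled mCre TN replicate 2.

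The 5p arms of the same Mir27 hairpins had the opposite balance. miR-27a-5p made up 78.1% and 80.7% of its pair in mCre MP, 87.4% and 86.6% in mCre TN, 77.5% and 76.5% in WT MP, and 78.7% and 83.4% in WT TN, so that the a form exceeded the b form 3.25 to 6.91 times. The Mir24 5p arms leaned the same way. miR-24-2-5p made up 91.2% to 96.1% of its pair in the 7 libraries where miR-24-1-5p had counts, an excess of 10.3 to 25.1 times. In the library labelled mCre TN replicate 2 it made up 100% of the pair and was at least 47.0-fold higher than miR-24-1-5p, taking the 3 counts that a count of 0 allows. The rare miR-23a-5p, with 4 to 11 counts per library, was below miR-23b-5p in 8 of 8 libraries.

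**Figure D2:**
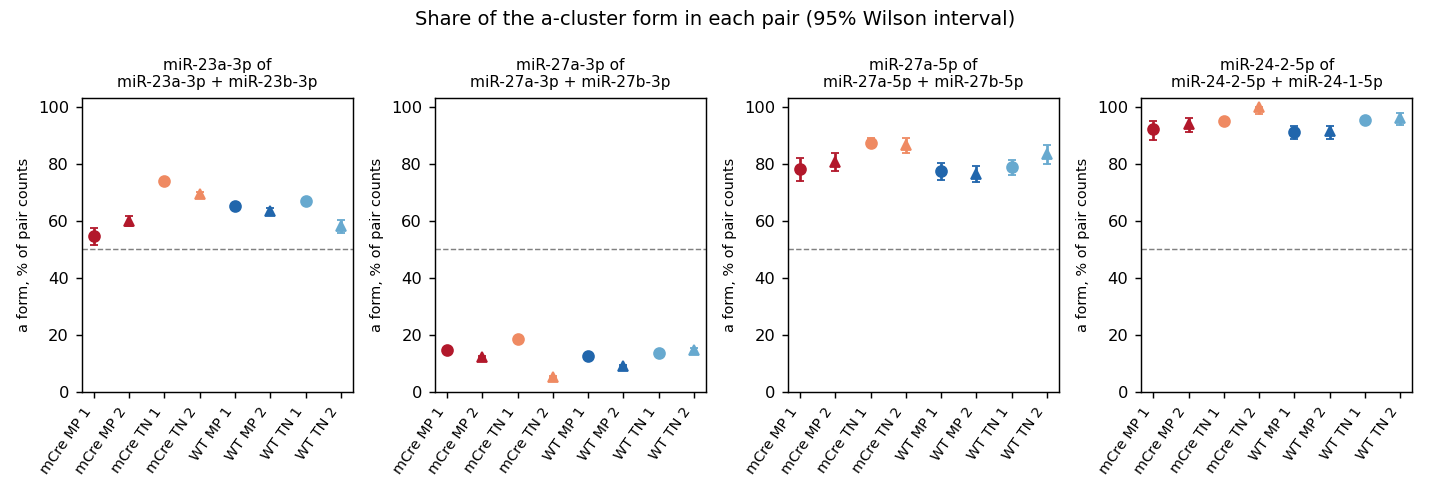
Share of the a-cluster form in the counts of its pair, in percent, for each library in 4 pairs. Error bars are 95% Wilson intervals and cover counting error only. miR-23a-3p lies above the dashed 50% line in all 8 libraries, miR-27a-3p below it in all 8, and miR-27a-5p and miR-24-2-5p above it in all 8.

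The a-to-b balance of the miR-23 and miR-27 3p arms did not pass a test of difference between subsets or genotypes. The 5p pairs were not tested. The log2 ratio of miR-24-2-5p to miR-24-1-5p was 3.35 to 3.91 in MP libraries and 4.22 to 8.14 in TN libraries, without overlap. It rested on few counts of miR-24-1-5p, with 0 in the library labelled mCre TN replicate 2. The log2 ratio of miR-23a-3p to miR-23b-3p averaged 0.64 ± 0.28 in MP libraries and 1.04 ± 0.43 in TN libraries (SD, n = 4 each), a difference of -0.41 with an exact two-sided permutation p of 0.171, or 0.686 after Benjamini-Hochberg adjustment over the 4 ratio tests. Between genotypes it averaged 0.88 ± 0.56 in mCre and 0.80 ± 0.23 in WT (exact permutation p = 0.8, adjusted 1, n = 4 each). The log2 ratio of miR-27a-3p to miR-27b-3p averaged -2.86 ± 0.31 in MP libraries and -2.87 ± 0.89 in TN libraries (exact permutation p = 1, adjusted 1, n = 4 each). In mCre libraries it averaged -2.91 ± 0.88, against -2.81 ± 0.33 in WT libraries (exact permutation p = 0.8286, adjusted 1, n = 4 each). The smallest p that 4 against 4 libraries allow is 0.0286. Without both TN replicate 2 libraries, 3 of these 4 differences changed sign, and none passed; the values stand in the account of the processing.

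How the reads of near-identical forms were divided sets a limit on these ratios. Among the 3p arms of miR-23 and of miR-27, and among the Mir24 5p arms, the fractional parts of the a and b counts were the same in 8 of 8 libraries, within 0.011, and were above 0 in 5, 4 and 5 libraries. The 5p arms of Mir27 and of Mir23 had whole counts throughout. The fractional parts do not tell how many reads were shared, so how far the split moved the 3p ratios was not tested.

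Arm use differed between the hairpins and between libraries. The 5p arm held 17.0% and 16.2% of Mir27a counts in mCre MP, 13.1% and 46.3% in mCre TN, 8.74% and 17.5% in WT MP, and 8.34% and 19.2% in WT TN, while it held 0.386% to 0.975% of Mir27b counts over the 8 libraries. The value of 46.3%, with a 95% Wilson interval of 43.5% to 49.1%, belonged to the library labelled mCre TN replicate 2, where miR-27a-3p was lowest. miR-27a-5p itself was steady, at 163.2 to 242.4 CPM, a 1.49-fold range, against 9.84-fold for miR-27a-3p. For miR-27b-5p the range was 1.98-fold, from 29.4 to 58.2 CPM, against 3.50-fold for miR-27b-3p. The 3p counts in these shares and in those of Mir23a and Mir23b depend on how reads were divided between a and b forms. How far that division moved the 5p shares was not tested.

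The 5p arm of Mir23b was highest in the libraries where its 3p arm was lowest, but its differences between groups did not pass the test. miR-23b-5p reached 29.0 and 17.5 CPM in mCre MP, 5.96 and 5.53 CPM in mCre TN, 6.37 and 5.98 CPM in WT MP, and 4.80 and 21.9 CPM in WT TN. It was highest in both mCre MP libraries and in the library labelled WT TN replicate 2, the same 3 libraries in which miR-23b-3p was lowest. The 5p share of Mir23b was 9.80% and 3.73% in mCre MP, 0.759% and 0.350% in mCre TN, 0.565% and 0.473% in WT MP, and 0.457% and 5.34% in WT TN. These 5p shares rested on few counts, 55, 45 and 39 in the 3 high libraries. miR-23b-5p gave a log2 fold change of 1.90 ± 0.86 (SE) for mCre against WT in MP (edgeR adjusted p = 0.397). For MP against TN in mCre it gave 2.01 ± 0.86 (edgeR adjusted p = 0.227). Both mCre MP libraries lay above both WT MP and both mCre TN libraries, as did 27.2% and 29.6% of the miRNAs tested. The 5p share of Mir23a was also higher in the same 3 libraries, at 0.571% to 1.77% against 0.0530% to 0.113% in the other 5. It rested on 11 and 10 counts of miR-23a-5p in mCre MP and 6 in the library labelled WT TN replicate 2. The other 5 libraries held 4 to 11, and miR-23a-5p did not pass the filter. miR-23a-3p was lowest in these same 3 libraries, which by itself raises the share.

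**Figure D3:**
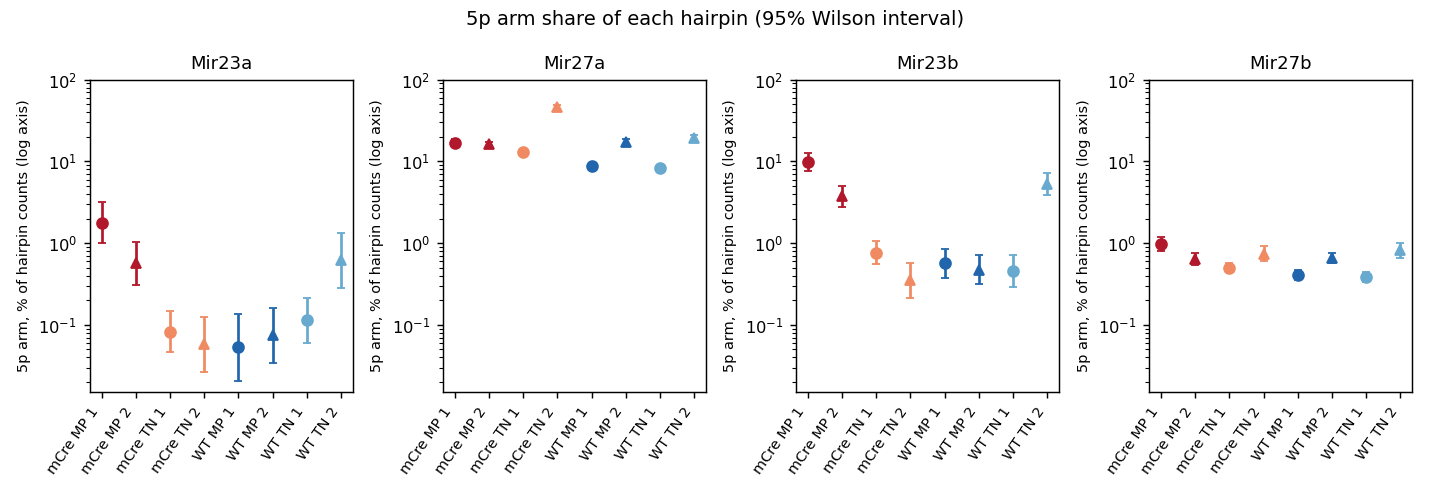
Share of the 5p arm in the counts of 4 hairpins, in percent on a log axis, for each library. Error bars are 95% Wilson intervals and cover counting error only. The Mir23a and Mir23b shares stand high in both mCre MP libraries and in the library labelled WT TN replicate 2, and the Mir27a share stands highest, at 46.3%, in the library labelled mCre TN replicate 2.

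Forms cut from the same transcript did not keep a fixed ratio. Within the a cluster, miR-23a-3p over miR-27a-3p was 0.392 and 0.643 in mCre MP, 1.37 and 16.3 in mCre TN, 1.23 and 2.45 in WT MP, and 0.977 and 0.540 in WT TN. That is a 41.4-fold range, and 6.24-fold without the library labelled mCre TN replicate 2. Within the b cluster miR-23b-3p over miR-27b-3p ran over a 7.14-fold range, from 0.0560 to 0.400, or 2.57-fold without that library. miR-24-2-5p and miR-27a-3p of the a cluster stayed closest, with a ratio of 0.0922 to 0.222, a 2.40-fold range.

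Likeness across libraries was measured as the root mean square difference of mean-centred log2 CPM over the 8 libraries, where 0 means the same pattern. Among the 7 forms miR-23a-3p and miR-23b-3p differed by 0.374, miR-27a-3p and miR-24-2-5p by 0.405, and miR-24-3p and miR-23b-3p by 0.437. Neither cluster nor family ordered the pairs as a whole. Within families miR-27a-3p and miR-27b-3p differed by 0.579 and the Mir24 5p arms by 0.923, while within clusters miR-23a-3p and miR-27a-3p differed by 1.58 and miR-23b-3p and miR-27b-3p by 0.867. The largest difference, 2.13, was that of miR-23a-3p and miR-24-1-5p. These are descriptions over libraries that share a scaling. They include both TN replicate 2 libraries and were not repeated without them. Outside the set, the miRNAs most like the summed a guides (miR-23a-3p and miR-27a-3p) were miR-872-5p at 0.135 and miR-26a-5p at 0.260, with miR-24-3p between them at 0.232, where the median over 380 other miRNAs was 1.02. Those most like the summed b guides (miR-23b-3p and miR-27b-3p) were miR-142a-3p at 0.281, miR-16-1-3p at 0.301 and miR-28a-5p at 0.318, with a median of 0.983. Those most like miR-24-3p were miR-26a-5p at 0.151, miR-532-5p at 0.221 and miR-200c-3p at 0.252, with a median of 0.981.

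**Figure D4:**
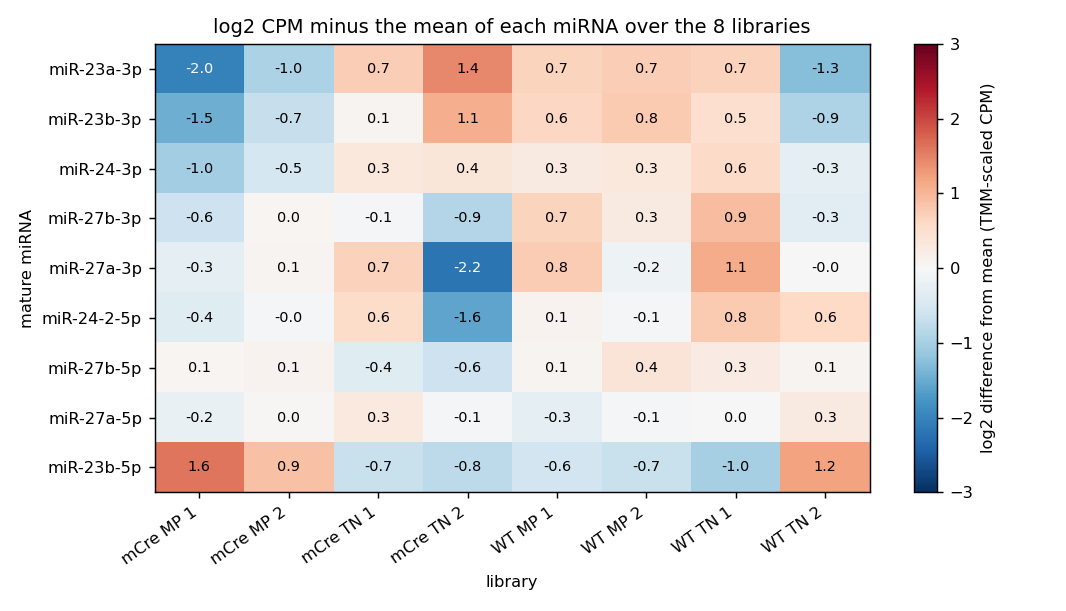
Log2 TMM-scaled CPM of 6 forms and 3 of the other arms, minus the mean of each over the 8 libraries, by library. miR-23a-3p, miR-23b-3p and miR-24-3p are low in both mCre MP libraries and in the library labelled WT TN replicate 2, miR-23b-5p is high in these, and miR-27a-3p and miR-24-2-5p are low in the library labelled mCre TN replicate 2.

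In MP cells the largest differences between mCre and WT among the 7 forms were those of the miR-23 forms and miR-24-3p, each below WT in both mCre libraries, and none passed the test. miR-23a-3p averaged 499.2 ± 251.4 CPM in mCre MP and 2139.4 ± 68.9 CPM in WT MP (SD, n = 2 each), a log2 fold change of -2.10 ± 0.76 (SE). miR-23b-3p averaged 359.2 ± 130.3 CPM in mCre MP and 1189.7 ± 97.0 CPM in WT MP, a log2 fold change of -1.73 ± 0.68. miR-24-3p averaged 1332.6 ± 342.5 CPM in mCre MP and 2762.5 ± 49.3 CPM in WT MP, a log2 fold change of -1.05 ± 0.51. None of the 7 passed an adjusted p of 0.05 in edgeR's quasi-likelihood test, with an adjusted p of 0.397 for each of these 3 and unadjusted p-values of 0.0255, 0.035 and 0.0742. The merged miR-23-3p total, which does not depend on how reads were divided between its forms, gave -1.96 ± 0.71 (edgeR adjusted p = 0.403). Fewer cells with these miRNAs and less miRNA per cell cannot be told apart in such bulk libraries.

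The miR-27 and 5p forms differed less in MP cells, with log2 fold changes of -0.73 ± 0.57 for miR-27b-3p, -0.47 ± 0.90 for miR-27a-3p, -0.21 ± 0.69 for miR-24-2-5p and -0.60 ± 1.35 for miR-24-1-5p (edgeR adjusted p from 0.566 to 0.899). The merged miR-27-3p total gave -0.70 ± 0.59 (edgeR adjusted p = 0.601). All 7 estimates were below 0, with a median of -0.73, against a median of -0.25 over the 382 miRNAs tested, of which 58.9% were below 0. The estimates of miR-27a-3p and miR-24-2-5p came to 0.03 without WT MP replicate 1 and 0.02 without mCre MP replicate 1, in that order. In 5 of 7 forms both mCre MP libraries lay below both WT MP libraries, which held for 38.7% of the miRNAs tested. Of all 382, 0% passed the threshold in edgeR, 41 (10.7%) had an unadjusted p under 0.05, and DESeq2 called 0. The TN replicate 2 libraries belong to neither group compared. Leaving them out changes the filter, the scaling, the shared estimate of spread and the set of miRNAs adjusted over. Without both of them miR-23a-3p (-2.09, edgeR adjusted p = 0.0247) and miR-23b-3p (-1.73, edgeR adjusted p = 0.0259) passed, as did 55 of the 433 miRNAs tested in that setting (12.7%). The adjusted p of miR-23a-3p ran from 0.0247 to 0.933 over all alternatives.

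Several other measures also set the mCre MP libraries apart from the WT MP libraries. The 4 lymphocyte and blood markers summed to 40196.9 to 63578.7 unscaled CPM in mCre MP, 108314 to 164992 in mCre TN, 101670 to 105273 in WT MP and 44311.9 to 75711.9 in WT TN. Most of this sum was miR-150-5p in every library. The 2 myeloid markers summed to 1.40 to 2.94 unscaled CPM in mCre MP, 7.26 to 10.3 in mCre TN, 10.7 to 13.7 in WT MP and 6.94 to 7.23 in WT TN, with miR-223-3p at 0 counts in mCre MP replicate 1. The 5 endothelial and stromal markers summed to 34.1 to 41.0 unscaled CPM in mCre MP, 41.1 to 61.6 in mCre TN, 65.0 to 111.7 in WT MP and 22.2 to 58.1 in WT TN, with miR-145a-5p at 0 in 7 of 8 libraries. The sum of the 4 erythroid markers ran the other way, at 89.7 to 138.3 unscaled CPM in mCre MP, 43.6 to 75.5 in mCre TN, 75.4 to 81.5 in WT MP and 54.2 to 92.2 in WT TN. That sum was mostly miR-486a-5p, the only 1 of the 4 with counts in every library. miR-451a did not follow it, with 3 and 0 counts in mCre MP and 33 and 10 in WT MP. The TMM factors of the mCre MP libraries, 0.885 and 0.841, were the lowest of the 8. The part of these measures in the miR-23 and miR-24 values was not tested.

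Within mCre cells, the miR-23 forms and miR-24-3p again had the largest differences, here between MP and TN, and again none passed. miR-23a-3p averaged 499.2 ± 251.4 CPM in mCre MP and 2887.5 ± 970.0 CPM in mCre TN (SD, n = 2 each), a log2 fold change of -2.53 ± 0.77. miR-23b-3p gave -1.71 ± 0.68 and miR-24-3p, at 1332.6 ± 342.5 CPM in mCre MP and 2858.0 ± 65.6 CPM in mCre TN, gave -1.10 ± 0.51. In these 3 of 7 forms both mCre MP libraries lay below both mCre TN libraries, as did 35.6% of the miRNAs tested (29.6% were all higher), and the mCre MP libraries are the ones that enter the comparison with WT MP as well. The edgeR adjusted p-values were 0.197, 0.226 and 0.229 for miR-23a-3p, miR-23b-3p and miR-24-3p. The merged miR-23-3p total gave -2.25 ± 0.72 (edgeR adjusted p = 0.199), and -1.92 without both TN replicate 2 libraries. miR-27b-3p differed by 0.17 ± 0.57, a value that turned to -0.18 with total count scaling.

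For this comparison 0% of the 382 miRNAs passed in edgeR and 79 (20.7%) had an unadjusted p under 0.05, 2 of the 7 forms among them, while DESeq2 called 41 (10.7%). miR-23a-3p was among those 41, at -2.56 with a DESeq2 adjusted p of 0.0128. Leaving out WT TN replicate 1 brought miR-23a-3p (-2.64, edgeR adjusted p = 0.0225) and miR-23b-3p (-1.81, edgeR adjusted p = 0.0448) past the threshold, along with 12.9% of the miRNAs tested (56 of 435). Leaving out the library labelled WT TN replicate 2 brought miR-23a-3p past it (-2.54, edgeR adjusted p = 0.0366), along with 5.03% of the miRNAs tested (22 of 437). Neither library belongs to the groups compared. Leaving out the library labelled mCre TN replicate 2, which does, gave -2.25 (edgeR adjusted p = 0.566). Over all alternatives the adjusted p of miR-23a-3p ran from 0.0128 to 0.603. Without both TN replicate 2 libraries it gave -2.26 (edgeR adjusted p = 0.0423), with mCre TN replicate 1 alone standing for its group and assumed to vary like the others, and 17 of 433 miRNAs (3.93%) passed. In that setting miR-23b-3p gave -1.24 and miR-24-3p -1.21 (edgeR adjusted p = 0.156 and 0.137).

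In WT cells no form passed between MP and TN. miR-23b-3p gave a log2 fold change of 0.73 ± 0.66 for MP against TN, miR-24-2-5p -0.67 ± 0.69 and miR-24-1-5p 0.40 ± 1.34 (edgeR adjusted p of 0.798, 0.798 and 0.935). These were the 3 forms whose WT MP and WT TN libraries did not overlap, 2 higher and 1 lower in MP, where 27% and 13.4% of the miRNAs tested did the same. The miR-23b-3p value rested on the library labelled WT TN replicate 2, and was 0.07 without it (edgeR adjusted p = 0.954). miR-23a-3p gave 0.69 ± 0.73, which became -0.09 without the same library and 1.99 without WT TN replicate 1. With both TN replicate 2 libraries left out, miR-23b-3p gave 0.05, miR-24-1-5p 0.06 and miR-24-2-5p -0.89. Of all 382 miRNAs 0% passed in edgeR and 33 (8.64%) had an unadjusted p under 0.05, and DESeq2 called 11, 0 of them among the 7 forms.

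In TN cells miR-23a-3p was nominally higher in mCre, at 2887.5 ± 970.0 CPM in mCre TN and 1326.5 ± 1114.4 CPM in WT TN (SD, n = 2 each), a log2 fold change of 1.12 ± 0.74 (edgeR adjusted p = 0.948). Leaving out the library labelled WT TN replicate 2 gave 0.43, and leaving out the one labelled mCre TN replicate 2 gave 0.68. It was 0.05 without both (edgeR adjusted p = 0.992) and 2.45 without WT TN replicate 1 (edgeR adjusted p = 0.129). miR-23b-3p gave 0.71 ± 0.66, which became -0.43 without both of these libraries. miR-24-2-5p averaged 132.0 ± 117.7 CPM in mCre TN and 235.0 ± 22.6 CPM in WT TN, a log2 fold change of -0.83 ± 0.69 (edgeR adjusted p = 0.948). That value was -2.27 when mCre TN replicate 1 was left out, -0.21 when the library labelled mCre TN replicate 2 was, and -0.23 when both TN replicate 2 libraries were. These were the only forms of the 7 without overlap between the compared TN libraries, miR-23a-3p all higher and miR-24-2-5p all lower, as were 15.7% and 6.81% of the miRNAs tested. In edgeR 0% of the 382 passed, 12 (3.14%) had an unadjusted p under 0.05, and DESeq2 called 0.

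**Figure D5:**
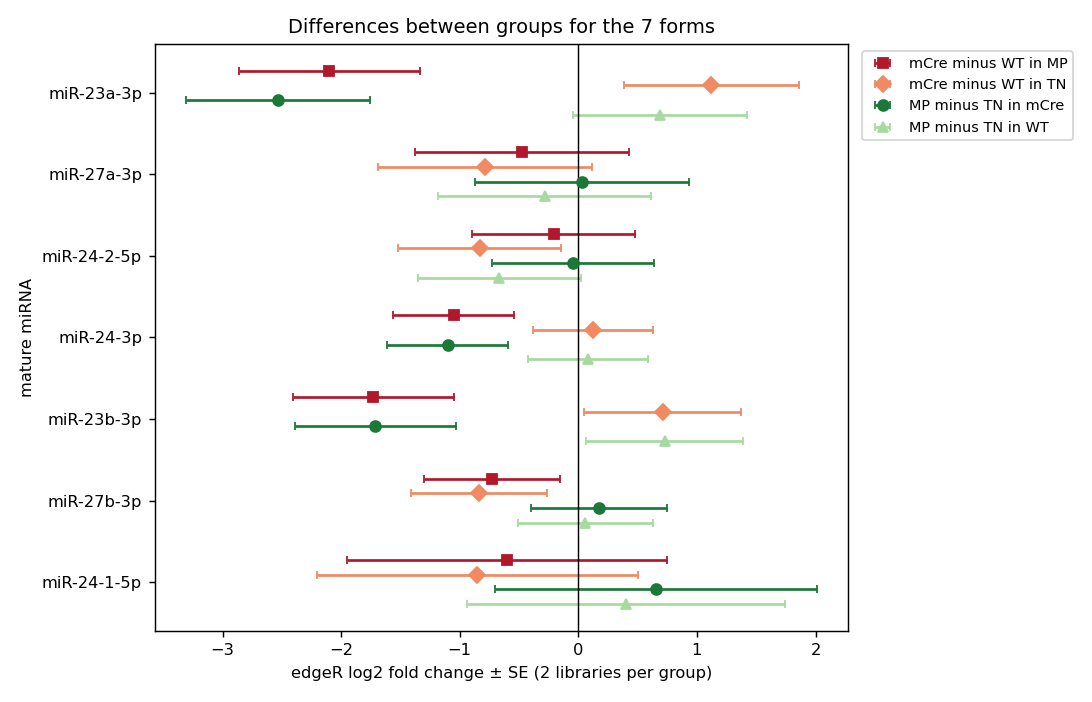
Log2 fold change of each form with its standard error in 4 comparisons, 2 libraries per group; points left of 0 are lower in mCre or in MP. The points of miR-23a-3p and miR-23b-3p lie left of 0 in the comparisons that use the mCre MP libraries and right of 0 in the other 2 while the TN replicate 2 libraries are included, and those of miR-27b-3p stay within -0.84 to 0.17.

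The genotype difference of miR-23a-3p in MP minus that in TN was -3.22 ± 1.06 on the log2 scale (unadjusted p = 0.0166, edgeR adjusted p = 0.306). For miR-23b-3p it was -2.44 ± 0.95 (unadjusted p = 0.0332, edgeR adjusted p = 0.306). The other 5 forms gave -1.18 to 0.62 for this interaction, and of all 382 miRNAs 0% passed in edgeR, 53 (13.9%) had an unadjusted p under 0.05, and DESeq2 called 10, with 0 of the 7 forms among them. Without WT TN replicate 1 both miR-23 forms passed, at -4.63 (edgeR adjusted p = 0.0176) and -3.43 (edgeR adjusted p = 0.0309), as did 68 of the 435 miRNAs tested (15.6%), while leaving out both TN replicate 2 libraries gave -2.14 and -1.29 (edgeR adjusted p = 0.663 and 0.818). The interaction thus moved by more than its standard error with the choice of TN libraries.

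Over both genotypes, none of the 7 forms passed for MP against TN, where 2.36% of the miRNAs tested did, and 0 of 7 had an unadjusted p under 0.05, as 12.8% did. The largest difference was that of miR-23a-3p, at -0.92 ± 0.86 (edgeR adjusted p = 0.756), and miR-24-3p gave -0.51 ± 0.42 (edgeR adjusted p = 0.728). For 0 of 7 forms were the 4 MP and the 4 TN libraries apart, where 4.19% of the miRNAs tested were all lower and 6.81% all higher in MP. DESeq2 called 26 of all miRNAs and 0 of the 7 forms. Without the library labelled WT TN replicate 2, miR-23a-3p gave -1.69 (edgeR adjusted p = 0.107) and miR-24-3p -0.85 (edgeR adjusted p = 0.121). Without both TN replicate 2 libraries they gave -1.32 and -0.84 (edgeR adjusted p = 0.134 and 0.153), and 48 of 433 miRNAs passed (11.1%), with 0 of the 7 forms among them. The value of miR-23a-3p was -0.36 without mCre MP replicate 1.

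Over both subsets all 7 forms were nominally lower in mCre, with log2 fold changes of -0.78 to -0.46 and a median of -0.52, against a median of -0.10 over the 382 miRNAs, of which 55.2% were below 0. The value of miR-23a-3p, -0.49, turned to 0.09 without mCre MP replicate 1 and to -1.40 without both TN replicate 2 libraries (edgeR adjusted p = 0.133). The abundant miR-27b-3p averaged 5800.5 ± 1722.8 CPM in mCre libraries and 9959.6 ± 3496.9 CPM in WT libraries (SD, n = 4 each), a log2 fold change of -0.78 ± 0.41 (unadjusted p = 0.0879, edgeR adjusted p = 0.991). In this comparison 0% of the 382 passed in edgeR, 5 (1.31%) had an unadjusted p under 0.05, and DESeq2 called 0. Without both TN replicate 2 libraries 23 of 433 passed (5.31%), with 0 of the 7 forms among them, and miR-27b-3p gave -0.82 (edgeR adjusted p = 0.161). For 0 of 7 forms were the 4 mCre libraries apart from the 4 WT libraries, where 0.785% of the miRNAs tested were all higher and 0.524% all lower in mCre.

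miR-128-3p, whose seed is the miR-27 seed shifted by 1 base (its first 8 bases equal those of miR-27a-3p from base 2 on), had no overlap between mCre MP and WT MP and was the higher in mCre, as were 27.2% of the miRNAs tested. It reached 4824.3 and 4068.4 CPM in mCre MP, 6736.7 and 140.9 CPM in mCre TN, 3308.2 and 2832.2 CPM in WT MP, and 4477.2 and 7481.2 CPM in WT TN. Like miR-27a-3p, miR-27b-3p, miR-24-2-5p and miR-24-1-5p, it had its lowest value in the library labelled mCre TN replicate 2.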

How the data were processed

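Small RNA libraries of sorted splenic CD8+ T cells were made with a NEBNext kit, per the labels' protocols. The authors deposited 1 table of expected counts per mature miRNA and precursor (2128 rows, 1978 names); fractional values were read as reads divided between rows. The genome build was mm10, per the submitters' processing notes; the aligner, the counter and the annotation of miRNAs were not given in the sources used here.

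Counts of rows with the same name were added and then rounded. Totals were 1936600 to 5230975 per library. Of 880 names detected, filterByExpr (minimum count 10, minimum total 15) kept 382. edgeR 4.0.16 (R 4.3.3) tested all 8 libraries by TMM-scaled quasi-likelihood with robust estimation and Benjamini-Hochberg adjustment at 0.05. A fit of the 4 groups gave the comparisons within a subset or genotype and their interaction, and an additive fit those over both. SE is the absolute log2 fold change over the square root of F. Log2 CPM used a prior count of 2. The fits were repeated with the a and b 3p forms of miR-23 and miR-27 merged (380 miRNAs). Log2 ratios of a to b forms had 0.5 added to each count. Those of the miR-23 and miR-27 3p pairs were tested by exact permutation over 70 splits. The 5p pairs were described only, and the Mir24 5p pair fell under the minimum of 10 counts for a test. Shares carry 95% Wilson intervals; intervals and the floor of 3 counts cover counting error only, since no molecular identifiers were used. The procedure was tested on simulated counts. DESeq2 1.42.0, other scalings, no filter, a replicate block, each library left out, both TN replicate 2 libraries left out and a pseudocount of 5 were the alternatives.

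Named miRNAs are the 7 forms, the other arms of their hairpins, the names sharing a seed, miR-128-3p, and the 3 miRNAs nearest in pattern to each of 3 profiles. Members, lists and rules were chosen with earlier results of these data known. Sequences are from RefSeq on GRCm38.p6, where 6 of the 7 forms and 1679 of 1978 names had a mature entry; miR-23b-3p is named only.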

Additional observations from a re-analysis of the deposited data

Results flagged for a closer look

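miR-23a-3p in the library labelled WT TN replicate 2, at 538.5 CPM, stood far below the other 3 WT libraries, which lay within 2090.6 to 2188.1 CPM. Its gap to the nearest of them was 0.941 of the range of the 4 libraries, above Dixon's 95% critical value for 4 values. Sets of 4 libraries were examined 36 times, and chance exceeds this value in about 1 in 20. The same library was lowest of all 8 in miR-29 and low in miR-23b-3p and miR-24-3p.

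For miR-23b-3p each mCre MP library lay below each mCre TN library, as for 35.6% of the miRNAs tested. Each WT MP library lay above each WT TN library, as for 27%. The interaction was -2.44 on the log2 scale (edgeR adjusted p = 0.306), so the difference between genotypes did not pass.

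miR-23a-3p was lower in mCre than in WT in all MP libraries, as were 38.7% of the miRNAs tested. It was higher in mCre than in WT in all TN libraries, as were 15.7%. There mCre TN replicate 1 (2201.6 CPM) lay close to WT TN replicate 1 (2114.5 CPM). The interaction was -3.22 on the log2 scale (edgeR adjusted p = 0.306), which did not pass either. Both patterns include the TN replicate 2 libraries.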

How the results depend on the processing

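Among 102 repeats of the counts of called forms and of the a-to-b ratios other than leaving out 1 library, 92 kept the result. For MP against TN in mCre, 0 of the 7 forms passed, against 1 without the filter on low counts (where 29 of 878 miRNAs passed), 1 with DESeq2 (41 of 382) and 1 without both TN replicate 2 libraries (17 of 433), miR-23a-3p each time. The merged families gave 1 without the filter and 1 with DESeq2. For mCre against WT in MP, 2 forms (miR-23a-3p and miR-23b-3p) and 1 merged family (miR-23-3p) passed without both TN replicate 2 libraries, against 0, where 55 of 433 miRNAs passed, against 0 of 382. Without these libraries the log2 difference of miR-23a-3p over miR-23b-3p between mCre and WT became -0.12 (exact permutation p = 0.8), that of miR-27a-3p over miR-27b-3p between MP and TN became -0.47 (exact permutation p = 0.267) and that between mCre and WT became 0.41 (exact permutation p = 0.3). miR-27b-3p for MP against TN in mCre became -0.18 with total count scaling and -0.31 without both TN replicate 2 libraries. Without these libraries miR-23a-3p became -0.12 for MP against TN in WT, and miR-23b-3p became -0.43 for mCre against WT in TN. The cause of these shifts was not tested.

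Leaving out each library in turn, the forms that passed for MP against TN in mCre ran from 0 to 2 and the merged families from 0 to 1, the most forms without WT TN replicate 1, where 56 of 435 miRNAs passed. For the interaction the forms ran from 0 to 2 and the families from 0 to 1, again the most without WT TN replicate 1, where 68 of 435 passed. The log2 difference of miR-23a-3p over miR-23b-3p between mCre and WT ran from -0.12 to 0.29, that of miR-27a-3p over miR-27b-3p from -0.42 to 0.26 between MP and TN and from -0.37 to 0.31 between mCre and WT. miR-27b-3p for MP against TN in mCre ran from -0.30 to 0.57. For mCre against WT in MP, miR-27a-3p ran from -0.94 to 0.0297 (above 0 without WT MP replicate 1) and miR-24-2-5p from -0.44 to 0.0241 (above 0 without mCre MP replicate 1). miR-23a-3p ran from -3.24 to -2.03 for MP against TN in mCre and from -4.63 to -2.45 for the interaction, from -0.0946 to 1.99 for MP against TN in WT (below 0 without WT TN replicate 2), and from -1.17 to 0.0927 for mCre against WT over both subsets (above 0 without mCre MP replicate 1).

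With replicate number as a block, 0 of the 7 forms passed in each of the 7 comparisons, as without it. Over all miRNAs, MP against TN over both genotypes gave 2 calls with the block and 9 without it. Libraries that share a number deviated together in some pairs of groups only. The correlation of their deviations ran from -0.32 to 0.41 and exceeded 0.1 in 2 of 6 pairs. These mixed values cannot settle whether the numbers pair the libraries, and they were not taken to do so. Scaling by total counts moved the median of all miRNAs for mCre against WT in MP to -0.48, against -0.25 with TMM and -0.14 with the size factors of DESeq2. With 2 libraries per group, and 0 to 69.5 counts of miR-24-1-5p, the fits set no narrow limit on the rarer forms.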
